A study of Mus musculus with 8 samples.

Results

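In this series, 9 genes of the IL-33 and type 2 innate lymphoid axis were mapped to the cells of mouse inguinal white fat that carried them, and then compared between 2 feeding regimens. The genes are Il33, Il1rl1, Il1rap, Gata3, Il5, Il13, Areg, Il7r and Calca. All 9 were found by symbol among the 32285 genes of the deposited tables. The cells came from the stromal vascular fraction (SVF), the part of digested fat that is left when the floating adipocytes are removed, of C57BL/6 mice (C57BL/6J in the study's text). They were captured in 8 droplet libraries with barcoded beads (10x Genomics). Of these, 4 libraries came from mice fed ad libitum (Ad-Lib, replicates 1, 3, 5 and 7) and 4 came from mice given access to food in 2 windows each night (twice-a-night, TAN, replicates 2, 4, 6 and 8). The labels give an age of 8 weeks, but the study describes male mice that were several months old after months of feeding, so the age is uncertain. The labels do not tie a library to 1 animal or to a pool, and p-values here measure the spread between libraries. The study's methods state that lymph nodes were excluded from the fat.

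IL-33 is a cytokine of the IL-1 family that stromal and epithelial cells hold in the nucleus and release when they are damaged. It acts through a receptor made of ST2, encoded by Il1rl1, and the shared chain encoded by Il1rap. Type 2 innate lymphoid cells (ILC2s) are tissue lymphocytes without an antigen receptor that need the transcription factor GATA3 and the IL-7 receptor, and they answer IL-33 with IL-5, IL-13 and amphiregulin. In white fat, ILC2s and the eosinophils and macrophages that they support have been linked to the browning of adipocytes.

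Counts of unique molecular identifiers (UMIs, which mark single captured RNA molecules) were used. The libraries held between 25320800 UMIs (Ad-Lib 7) and 37140950 UMIs (Ad-Lib 1), and 36370 cells were kept in all, between 3717 and 5654 a library. The median depth of a kept cell was 5060 to 6560.5 UMIs in Ad-Lib and 3925.5 to 5189 in TAN libraries, and the median mitochondrial share was 1.76 to 2.38% and 2.69 to 3.64%. Of 36193 barcode sequences among the kept cells, 174 occurred in more than 1 library. Each cell was placed in a lineage by lists of marker genes that held none of the 9 genes, and 11.5% of cells stayed unassigned. Levels are given in CPM, a gene's UMIs scaled to 1 common total of UMIs for each lineage and library. In the comparison of feeding regimens, fewer cells of a kind within a lineage and less RNA per cell cannot be told apart.

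The 9 genes lie on 8 chromosomes of the build GRCm38, with Il5 and Il13 on the same one. Il33 is at chr19:29925114-29960718 on the plus strand and Il1rl1 at chr1:40429570-40465415 on the plus strand. Il13 lies at chr11:53631324-53634702 on the minus strand and Il5 at chr11:53720794-53725106 on the plus strand. As Il1rl1, Il13 and Il5 encode the receptor chain and the cytokines of ILC2s, whose lineage factor GATA3 is also a member, the 250 bases before their annotated starts (RefSeq, GRCm38.p6) were searched for GATA letters and are printed, 5′ to 3′ on the gene's strand. Capitals mark matches, on either strand, to the forms that GATA factors bind. These are AGATAA and AGATAG, and the same words with T in place of the first letter. No other motif was searched. Il1rl1 has 2 annotated starts, and its first window (chr1:40429320-40429569) held 5 matches, whereas the window before the second start (chr1:40439379-40439628) held 1. The windows of Il13 (chr11:53634703-53634952, minus strand) and Il5 (chr11:53720544-53720793) held 1 each.
Il1rl1 first start: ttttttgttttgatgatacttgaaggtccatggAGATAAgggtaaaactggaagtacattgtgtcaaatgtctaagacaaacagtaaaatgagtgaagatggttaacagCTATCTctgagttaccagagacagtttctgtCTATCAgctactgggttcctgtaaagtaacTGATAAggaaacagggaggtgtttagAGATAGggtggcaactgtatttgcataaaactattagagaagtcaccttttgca
Il1rl1 second start: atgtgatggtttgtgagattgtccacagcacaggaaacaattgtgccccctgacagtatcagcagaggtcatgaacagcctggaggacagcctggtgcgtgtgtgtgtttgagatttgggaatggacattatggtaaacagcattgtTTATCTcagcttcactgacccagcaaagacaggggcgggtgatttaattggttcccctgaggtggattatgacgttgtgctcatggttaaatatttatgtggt
Il13: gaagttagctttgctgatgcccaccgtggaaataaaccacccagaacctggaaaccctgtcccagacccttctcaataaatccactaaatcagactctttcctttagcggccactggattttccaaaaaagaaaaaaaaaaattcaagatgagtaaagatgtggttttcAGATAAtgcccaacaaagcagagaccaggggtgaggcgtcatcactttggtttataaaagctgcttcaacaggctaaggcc
Il5: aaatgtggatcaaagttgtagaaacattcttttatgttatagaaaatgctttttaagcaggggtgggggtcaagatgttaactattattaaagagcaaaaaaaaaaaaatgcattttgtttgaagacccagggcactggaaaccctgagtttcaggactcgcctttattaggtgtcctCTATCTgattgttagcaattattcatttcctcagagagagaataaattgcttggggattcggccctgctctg
All 9 genes matched the RefSeq table, with 11 windows in all, and 5 of the 11 held a match, the fifth being that of Calca. Of all 32851 windows of this length, 26.5% held at least 1 match. Both windows of Il33 held none, and so did the windows of Areg, Gata3, Il1rap and Il7r, which are not printed. A match is a run of letters and not a measured binding site. Counts from the 3′ end of transcripts do not tell the starts of Il1rl1 apart, nor its membrane-bound from its soluble form, nor the calcitonin and CGRP transcripts of Calca.

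To find the source of the ligand, Il33 UMIs were counted in every lineage. Adipocyte progenitors with Dpp4-type markers, the stem-like population of fibroblasts in fat that carries Dpp4 and Pi16, held 4620 of 5499 Il33 UMIs (84.0%). In this lineage of 4177 cells, 46.4% of cells had at least 1 Il33 UMI (95% exact binomial interval 44.9 to 48.0%), and the level was 133 CPM ± 35.1 (SD, n = 8 libraries). F3+ progenitors followed with 40.5 CPM ± 19.95, progenitors of no subset with 27.9 ± 12.4, and Icam1+ progenitors, the committed preadipocytes, with 4.55 ± 0.98 (SD, n = 8 each). Blood endothelial cells, the largest lineage with 8652 cells, held 40 Il33 UMIs (1.07 CPM ± 0.58), mural cells held 1 and Schwann cells none. The 11 lymphatic endothelial cells held 5 Il33 UMIs, a pooled level of 75.6 CPM whose exact Poisson interval of 24.5 to 176 CPM covers counting error only. B cells, which should lack Il33, had it in 0.0364% of 2748 cells at a median depth of 3480.5 UMIs, against a median depth of 9182 UMIs in Dpp4+ progenitors. After each cell was thinned to 2000 UMIs, the share was 13.7 to 28.5% over the 8 libraries in Dpp4+ progenitors and at most 0.0702% in B cells.

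**Figure D1:**
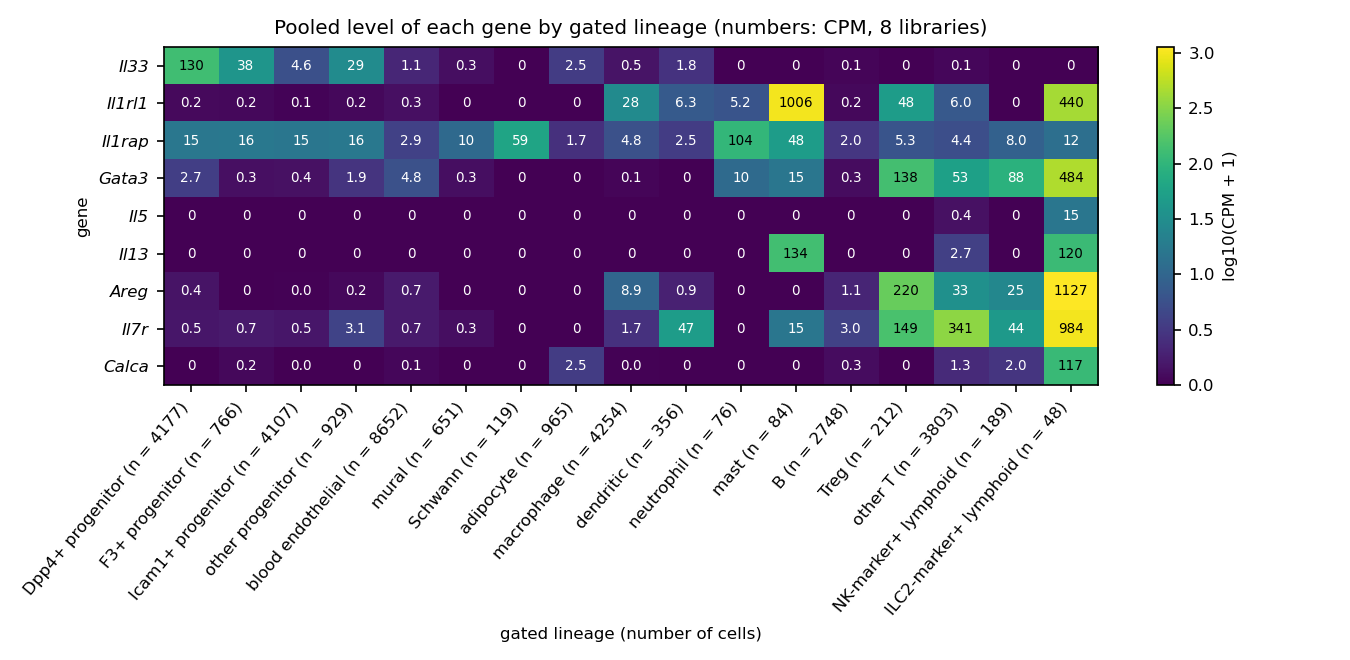
Pooled level of the 9 genes (rows) in 17 gated lineages (columns, with cell numbers) over all 8 libraries, coloured by log10(CPM + 1) with the CPM printed in each cell. Il33 was highest in Dpp4+ progenitors (130 CPM pooled), Il1rl1 and Il13 in mast cells, and the other members but Il1rap in ILC2-marker+ lymphoid cells.

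Neighbours in this order were compared over the 8 libraries by an exact sign-flip test, two-sided, with Benjamini-Hochberg values over 30 pairs of lineages for all members and a smallest possible p of 0.00781. Il33 was higher in Dpp4+ than in F3+ progenitors in 8 of 8 libraries, by 92.8 CPM ± 24.4 (SD; exact p = 0.00781, adjusted p = 0.0391). F3+ progenitors and progenitors of no subset were not told apart, with F3+ higher in 6 of 8 libraries (12.6 CPM ± 25.4, exact p = 0.203, adjusted p = 0.406). Progenitors of no subset exceeded Icam1+ progenitors in 8 of 8 libraries (23.4 CPM ± 12.5, exact p = 0.00781, adjusted p = 0.0391). Both calls depend on the family of pairs. When libraries of at least 3 cells were admitted and the lineages ordered anew, which gave 33 pairs, the same differences had an adjusted p of 0.0645, and no pair of any member passed.

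The receptor chain Il1rl1 was carried by a different set of cells. Mast cells, which are known to carry ST2 at a high level, had 984 CPM ± 399, ILC2-marker+ lymphoid cells 472 ± 221, regulatory T cells (Treg) 96.4 ± 150, macrophages 27.1 ± 6.22 and the other T cells 15.8 ± 16.3 (SD, n = 8 libraries each). Mast cells numbered 84 and ILC2-marker+ cells 48, and neither of these lineages held the most molecules. The 4254 macrophages carried 727 of 1650 Il1rl1 UMIs (44.1%), mast cells 16.4%, ILC2-marker+ cells 8.91%, other T cells 8.24% and Tregs 4.42%. Unassigned cells held 14.4%. In B cells 2 UMIs were found, and each of the 4 progenitor lineages had a mean of at most 0.197 CPM.

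With libraries of at least 3 cells admitted, a setting chosen after the data were seen, Il1rl1 was higher in mast than in ILC2-marker+ cells in 8 of 8 libraries (exact p = 0.00781, adjusted over 33 pairs p = 0.0645). ILC2-marker+ cells exceeded Tregs in 7 of 7 libraries (exact p = 0.0156, adjusted p = 0.0737), and Tregs exceeded macrophages in 5 of 7 (exact p = 0.109, adjusted p = 0.201). None of these neighbours differed at an adjusted p under the 0.05 threshold. Macrophages exceeded other T cells in 7 of 8 libraries by 11.2 CPM ± 13.2 (exact p = 0.0547, adjusted p = 0.156 over the 30 pairs).

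Within macrophages, Il1rl1 followed the split between perivascular-type cells with Lyve1 and monocyte-derived cells with Ccr2, a split chosen after the data were seen. Thinned to 2000 UMIs, 2.74% ± 1.40 of macrophages with a Lyve1 UMI and 8.20% ± 1.54 of those without one had an Il1rl1 UMI, lower with Lyve1 in 8 of 8 libraries (SD, n = 8; exact sign-flip p = 0.00781). With a Ccr2 UMI the share was 7.41% ± 1.11, and without one 3.90% ± 1.21, higher with Ccr2 in 8 of 8 libraries (exact sign-flip p = 0.00781). The thinned shares left out 672 macrophages below that depth, and the part of depth in these splits was not tested. The 2 splits were of the same cells, and 4 such comparisons were made, including those of Areg.

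Il1rap, the co-receptor that ST2 shares with the IL-1 receptor, was found in stromal cells and leukocytes. Icam1+ progenitors held 30.6% of its 1944 UMIs, Dpp4+ progenitors 27.9%, F3+ progenitors 4.78% and progenitors of no subset 4.68%. Macrophages held 6.48% and other T cells 5.14%. By level, neutrophils had 104 CPM pooled (exact Poisson interval 63.6 to 161). This came from 20 UMIs in 76 cells, with none in Ad-Lib 3, Ad-Lib 7 or TAN 4. Schwann cells had 61.8 CPM ± 18.8 and mast cells 44.7 ± 37.9, while the 4 progenitor lineages lay between 13.9 and 15.9 CPM (means, n = 8). Macrophages had 4.82 CPM ± 1.12 and ILC2-marker+ cells 4 UMIs in all. Schwann cells exceeded F3+ progenitors in 7 of 7 libraries with at least 10 cells of both (exact sign-flip p = 0.0156, adjusted p = 0.0586). Dpp4+ exceeded Icam1+ progenitors in 8 of 8 libraries by 1.26 CPM ± 0.43 (exact p = 0.00781, adjusted p = 0.0391), but as mean UMIs per cell the order was reversed, with a difference of -0.00907.

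Cells with the features of ILC2s were then examined. The ILC2-marker+ gate took lymphoid cells without a Cd3 UMI that were not NK-marker+ and had at least 2 of 9 ILC2 markers, and neither Gata3, Il1rl1 nor Il7r was used. Of the 48 cells, 42 had a Gata3 UMI, 37 an Il1rl1 UMI and all 48 an Il7r UMI, and 36 had both Gata3 and Il1rl1. TAN 4 stood apart, since 1 of its 9 cells had an Il1rl1 UMI and 5 had Gata3, and 1 of 3 cells in TAN 6 had both genes. In the other 6 libraries 34 of 36 cells had both. Among the 9 markers of the gate, Rora was found in 38 cells, Il2ra in 35, Klrg1 in 31 and Arg1 in 23. Hlf was found in 20, Bmp7 in 15, Il17rb in 10, and Nmur1 and Ccr4 in 2 each. No cell had an Ncr1, Cd79a or Pdgfra UMI, 3 had C1qa and 4 had Trac, but 39 had a Trbc1 or Trbc2 UMI. The number of these cells was 8, 7, 4 and 5 in Ad-Lib 1, 3, 5 and 7 and 5, 9, 3 and 7 in TAN 2, 4, 6 and 8.

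Gata3 had 506 CPM ± 195 in ILC2-marker+ cells, 154 ± 76.1 in Tregs, 90.3 ± 43.7 in NK-marker+ cells and 76.2 ± 36.0 in other T cells (SD, n = 8 libraries each). NK-marker+ and other T cells were not told apart (4 of 8 libraries higher in NK-marker+ cells, exact p = 0.750, adjusted p = 1). Other T cells exceeded blood endothelial cells, at 4.97 CPM ± 1.34, in 8 of 8 libraries (exact p = 0.00781, adjusted p = 0.0391). Il7r, the receptor chain for the survival cytokine IL-7, had 1037 CPM ± 266 in ILC2-marker+ cells, 358 ± 55.3 in other T cells and 177 ± 102 in Tregs. Other T cells exceeded NK-marker+ cells, at 37.5 CPM ± 31.4, in 8 of 8 libraries (exact p = 0.00781, adjusted p = 0.0391). By number of molecules, other T cells held 79.8% of Il7r and 55.8% of Gata3 UMIs, and ILC2-marker+ cells 3.41% and 7.51%.

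The effector genes were sparse. Il5, the growth factor of eosinophils, had 16 UMIs in 13 cells of the whole series, of which 8 UMIs were in other T cells, 5 in ILC2-marker+ cells and 3 in unassigned cells. Il13 had 153 UMIs in 65 cells. Mast cells held 36 of these in 22 of 84 cells (131 CPM ± 68.4, n = 8), and other T cells held 62 in 27 of 3803 cells (3.20 CPM ± 3.35). ILC2-marker+ cells held 40 Il13 UMIs in 8 cells, and the level by library was 0, 122, 55.4 and 0 CPM in Ad-Lib 1, 3, 5 and 7 and 0, 467, 0 and 21.7 CPM in TAN 2, 4, 6 and 8. TAN 4 thus held 31 of the 40 UMIs, in 4 of its 9 cells, and 22 of these came from 1 cell. Of the 22 mast cells with Il13, 21 also had an Il1rl1 UMI, and 70 of all 84 mast cells had one.

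Areg, which encodes the epidermal growth factor receptor ligand amphiregulin, had 1111 CPM ± 662 in ILC2-marker+ cells, 264 ± 237 in Tregs, 67.2 ± 70.9 in other T cells and 7.86 ± 5.01 in macrophages (SD, n = 8). It was found in 28 of 48 ILC2-marker+ cells and 43 of 212 Tregs, and in none of the 84 mast cells. In ILC2-marker+ cells its level was 1301, 1365, 27.7 and 1416 CPM in Ad-Lib 1, 3, 5 and 7 and 2146, 663, 539 and 1430 CPM in TAN 2, 4, 6 and 8, and the groups overlapped. Calca, which gives rise to calcitonin and the neuropeptide CGRP, had 95 UMIs in 51 cells, 39 of them in 9 ILC2-marker+ cells (117 CPM ± 102) and 30 in 17 other T cells. No ILC2-marker+ cell had both a Calca and an Il13 UMI, in a set of 9 and 8 cells where both genes were sparse. The 48 other T cells with an Il5, Il13 or Calca UMI all carried a Cd3 gene by the gate, 39 had at least 2 of the 3 Cd3 genes, 32 had Trac and 28 had Gata3.

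To determine whether TAN feeding changed the axis, summed counts per library were compared in 11 fits with edgeR, each over all genes of a lineage or a pool of lineages. Calls required a change of 1.5-fold or more together with a p below 0.05 after Benjamini-Hochberg adjustment. Members passed the filter on low counts in 33 combinations of gene and fit, and 3 were called, all lower. Over all genes the same 11 fits made 97781 tests, of which 993 (1.02%) were called, 319 higher and 674 lower. The fits for pools and whole libraries share cells with those for single lineages, so that the combinations are not independent. Areg was lower under TAN in macrophages and in other T cells, and Il1rap was lower in Icam1+ progenitors. Il5 passed the filter in no fit, and Il13 and Calca only in the sum over the whole library. Mast cells, Tregs and ILC2-marker+ cells had at least 10 cells in too few libraries for a fit. Fits for B cells, Schwann cells, NK-marker+ cells and adipocytes held no member past the filter. In whole libraries edgeR called none of the 8 members tested. Il7r went from 20.6 ± 15.7 to 68.8 ± 44.1 CPM there (SD, n = 4 each; log2 change 1.79, SE 0.63, edgeR adjusted p = 0.160) and Gata3 from 7.18 ± 1.75 to 12.7 ± 5.66 CPM (0.89, SE 0.31, adjusted p = 0.158), beside a mean share of other T cells of 4.35% under Ad-Lib and 14.9% under TAN feeding, whose part was not tested. Il13 was at 0.379 ± 0.282 and 1.03 ± 0.937 CPM (1.49, SE 0.72, adjusted p = 0.223), and without TAN 4 its change was 0.60. Gata3 changed by 0.53 without TAN 6. Calca was at 0.432 ± 0.190 and 0.412 ± 0.146 CPM (-0.08, SE 0.41, adjusted p = 0.911). Il1rl1 was at 8.84 ± 2.66 and 6.17 ± 1.80 CPM (-0.46, SE 0.23, adjusted p = 0.232), with a change of -0.28 without Ad-Lib 5. In each of these 5 genes the groups overlapped.

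**Figure D2:**
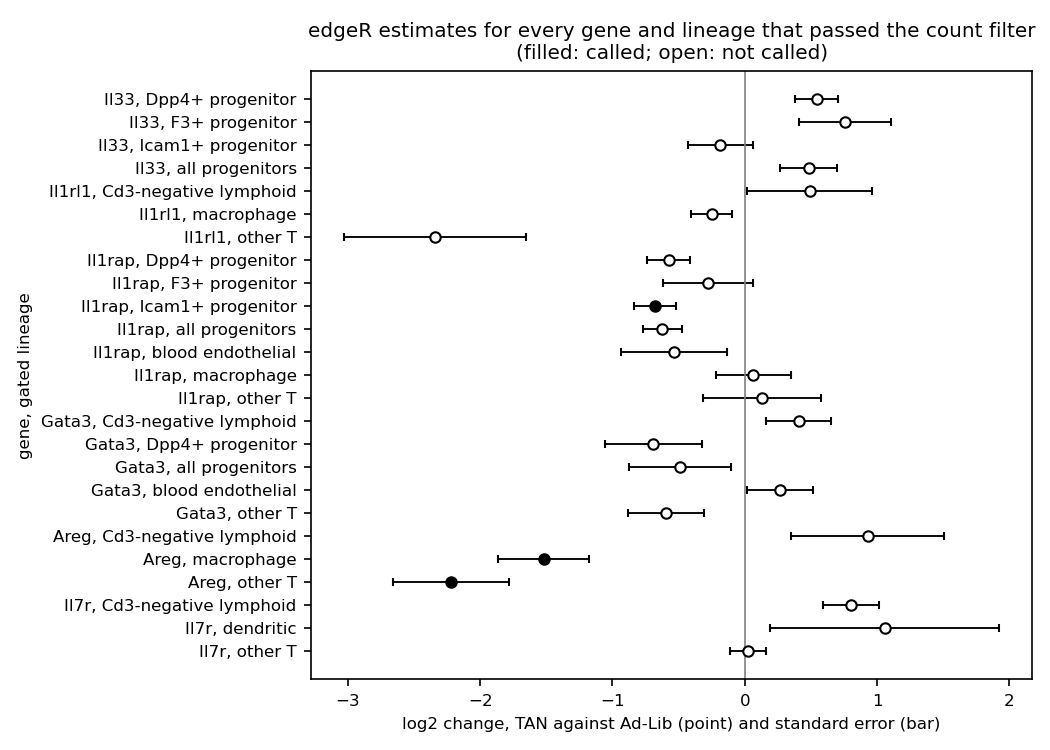
Log2 change under TAN against Ad-Lib (point, edgeR) with its standard error (bar) for the 25 combinations of gene and lineage that passed the count filter, whole libraries left out, 4 libraries a group. Filled points mark the 3 called changes, and the 22 open points were not called.

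The level of Il33 in Dpp4+ progenitors was 122, 126, 99.3 and 84.8 CPM in Ad-Lib 1, 3, 5 and 7 and 177, 188, 134 and 135 CPM in TAN 2, 4, 6 and 8. Every TAN library lay above every Ad-Lib library. The log2 change was 0.54 (SE 0.16), which did not pass the test (edgeR adjusted p = 0.171) and was below the 1.5-fold limit. In that fit 46 of 10704 genes (0.43%) were called, and none of the 3 members tested. Over all alternatives the adjusted p lay between 0.0154 and 0.448. The summed level of the 8 Dpp4+ markers was 4605 to 5356 CPM in Ad-Lib and 4994 to 6008 CPM in TAN libraries, and its part in the Il33 values was not tested.

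In F3+ progenitors Il33 was at 17.4, 63.3, 21.4 and 19.7 CPM in Ad-Lib 1, 3, 5 and 7 and at 68.7, 52.4, 41.9 and 39.1 CPM in TAN 2, 4, 6 and 8. Ad-Lib 3 lay among the TAN libraries. The change of 0.76 (SE 0.35) was not called (edgeR adjusted p = 0.540, in a fit where 14 genes, 0.191%, were called), and it was called in 1 of 8 fits that left out a library, without Ad-Lib 3 (1.37, adjusted p = 0.0275). Without TAN 2 it was 0.52 (adjusted p = 0.845), the other end of the range. In Icam1+ progenitors, where 1.63% of 11078 genes were called, Il33 changed by -0.18 (SE 0.24, adjusted p = 0.773). Over all progenitors together (0.579% of genes called), the Il33 change of 0.48 (SE 0.21) was not called (adjusted p = 0.350), and in the sum of all cells of a library (0.0268% called) the change was -0.02 (SE 0.30, adjusted p = 0.974).

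Whether the change of Il33 differed between subsets was tested on the log2(CPM + 1) scale in each library. The gap between Dpp4+ and Icam1+ progenitors averaged 4.26 ± 0.56 under Ad-Lib and 4.88 ± 0.33 under TAN feeding (SD over 4 libraries each; two-sided exact permutation p = 0.114), and that between Dpp4+ and F3+ progenitors was 1.98 ± 0.74 and 1.65 ± 0.21 (exact permutation p = 0.429). The design allows no p below 0.0286. Without Ad-Lib 3 both gaps reached it, with differences of 0.81 and -0.67.

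The share of Dpp4+ progenitors with an Il33 UMI, thinned to 2000 UMIs, was 19.1, 20.6, 16.1 and 13.7% in Ad-Lib 1, 3, 5 and 7 and 25.9, 28.5, 23.2 and 20.3% in TAN 2, 4, 6 and 8. The highest Ad-Lib library lay above the lowest TAN library. The means were 17.4% ± 3.09 and 24.5% ± 3.52 (SD, n = 4 each; exact permutation p = 0.0571, adjusted over 5 lineages p = 0.143). Thinning left out 202 Ad-Lib and 220 TAN cells, and over all cells, unthinned, the means were 43.0% ± 5.81 in Ad-Lib and 49.97% ± 6.37 in TAN (two-sided exact permutation p = 0.200). Thinned to 1000 UMIs, the share was 10.8, 11.4, 8.68 and 7.95% in Ad-Lib and 15.2, 16.2, 12.5 and 11.4% in TAN libraries, and there the groups just did not overlap, with the highest Ad-Lib and the lowest TAN library both at 11.4% when rounded. The means were 9.71% ± 1.65 and 13.8% ± 2.24 (exact permutation p = 0.0286, adjusted p = 0.143, n = 4 each). Thinned to 2000 UMIs, the share in F3+ progenitors was 4.65% ± 2.08 and 9.30% ± 2.93 (exact permutation p = 0.0571, adjusted p = 0.143), and in Icam1+ progenitors 0.807% ± 0.311 and 0.708% ± 0.0909 (exact permutation p = 0.8286, adjusted p = 0.943; n = 4 each). In F3+ progenitors thinned to 1000 UMIs, the means were 2.66% ± 1.19 and 4.60% ± 2.20 (exact permutation p = 0.171). Unthinned, they were 11.8% ± 2.09 and 18.7% ± 4.68 (exact permutation p = 0.0571).

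**Figure D3:**
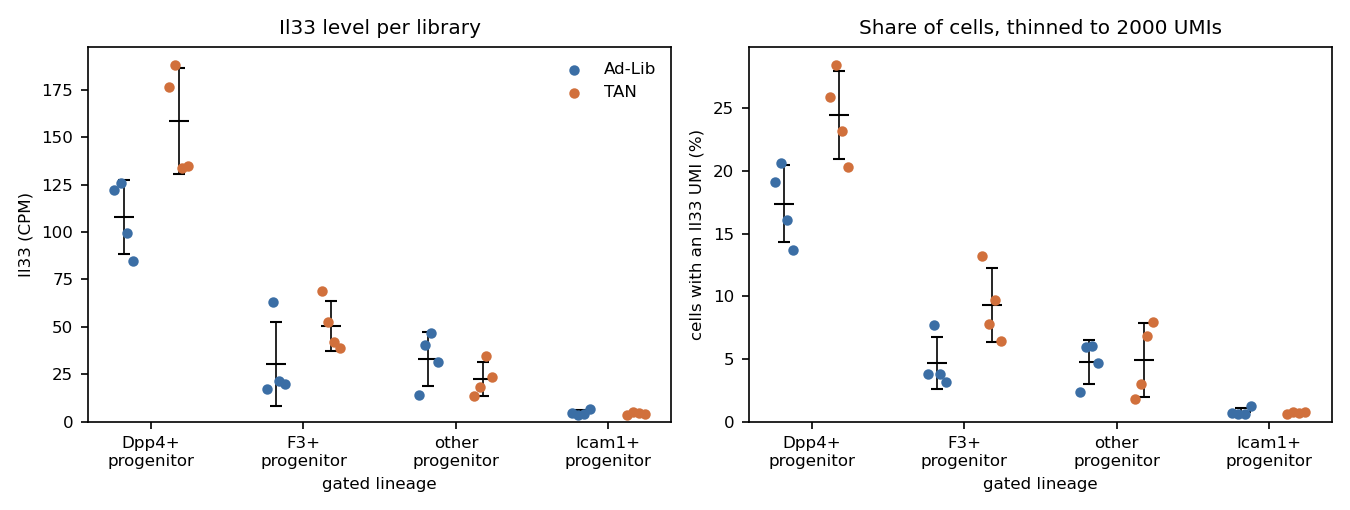
Il33 level in CPM (left) and share of cells with an Il33 UMI after thinning to 2000 UMIs (right) in 4 progenitor lineages, 1 point a library, with the mean and SD of each group of 4. In Dpp4+ progenitors the TAN libraries lay at 134 to 188 CPM and the Ad-Lib libraries at 84.8 to 126 CPM.

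On the receptor side, Il1rap fell in Icam1+ progenitors. Its level there was 12.3, 15.0, 21.0 and 19.4 CPM in Ad-Lib 1, 3, 5 and 7 and 9.54, 10.4, 12.95 and 10.9 CPM in TAN 2, 4, 6 and 8, so that Ad-Lib 1 lay below TAN 6. The log2 change was -0.68 (SE 0.16, edgeR adjusted p = 0.0350), 1 of 2 members called in a fit that called 1.63% of genes. It kept its call in 5 of 5 other settings and in 2 of 8 fits that left out 1 library, without Ad-Lib 1 or TAN 6. Without each of the others the adjusted p rose to as much as 0.118. In Dpp4+ progenitors the change was -0.57 (SE 0.16, adjusted p = 0.153), in F3+ progenitors -0.28 (SE 0.34, adjusted p = 0.894), and over all progenitors -0.62 (SE 0.14, adjusted p = 0.0719). Without 1 library the change in F3+ progenitors ran from -0.60 to -0.076. Over all progenitors Il1rap was called by DESeq2 (adjusted p = 0.0152), with no filter on low counts (0.0199), and without Ad-Lib 1 (0.0343) or TAN 6 (0.0432). In whole libraries Il1rap was at 8.16 to 13.9 CPM in Ad-Lib and 4.97 to 7.72 CPM in TAN libraries, without overlap, and its change of -0.75 (SE 0.17) was not called by edgeR (adjusted p = 0.0957). It was called by DESeq2 (adjusted p = 0.00447) and without Ad-Lib 3 (edgeR, 0.0470), and there the number of progenitors in a library and RNA per cell cannot be told apart. The summed level of the 8 Icam1+ markers in Icam1+ progenitors was 4760 to 5467 CPM in Ad-Lib and 4057 to 5261 CPM in TAN libraries, and its part was not tested.

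Il1rl1 in mast cells was at 805, 980, 926 and 652 CPM in Ad-Lib 1, 3, 5 and 7 and at 824, 1813, 583 and 1292 CPM in TAN 2, 4, 6 and 8, with the TAN values on both sides of the Ad-Lib values. The means were 841 ± 145 and 1128 ± 543 CPM (SD, n = 4 each; exact permutation p = 0.429). The difference of 287 CPM rested on single libraries, at 58.9 CPM without TAN 4 and 469 CPM without TAN 6. In ILC2-marker+ cells it was at 587, 387, 582 and 331 CPM in Ad-Lib and 563, 30.1, 539 and 758 CPM in TAN libraries, and the means were 472 ± 132 and 473 ± 311 CPM (exact permutation p = 1.00). TAN 4, which had the highest Il13, had the lowest Il1rl1 in these cells. Without TAN 4 the difference in ILC2-marker+ cells was 148 CPM (exact permutation p = 0.286). Both tests were added after the data were seen. In Tregs the level was 0, 34.1, 444 and 168 CPM in Ad-Lib and 56.2, 17.7, 19.9 and 31.7 CPM in TAN libraries, from 2 to 76 cells a library.

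In macrophages Il1rl1 was at 25.3, 23.5, 40.7 and 28.7 CPM in Ad-Lib and 19.6, 28.0, 24.0 and 26.8 CPM in TAN libraries, and the change of -0.25 (SE 0.15) was not called (edgeR adjusted p = 0.4999). Without 1 library it ran from -0.35 to -0.094 and was called in 0 of 8 fits. In other T cells Il1rl1 was at 24.3, 3.53, 36.7 and 42.2 CPM in Ad-Lib and 7.31, 3.06, 1.28 and 8.12 CPM in TAN libraries, with Ad-Lib 3 among the TAN values. The log2 change was -2.34 (SE 0.69) without a call (adjusted p = 0.0724), and it was called in 1 of 8 fits that left out a library, without Ad-Lib 3 (-2.99, adjusted p = 0.00132). In the other 7 the change was as small as -1.81 (without TAN 6, adjusted p = 0.211), and the adjusted p reached 0.215 (without Ad-Lib 5). With no filter on low counts it was called (-2.28, adjusted p = 0.000831). Ad-Lib 3 had the largest T cell share of its group. Among other T cells without a UMI of Ccr7 or Lef1, genes of naive T cells, the change was -1.64 (SE 0.64, adjusted p = 0.320). In Cd3-negative lymphoid cells the change was 0.49 (SE 0.47, adjusted p = 0.864), and without TAN 8 it was -0.22.

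**Figure D4:**
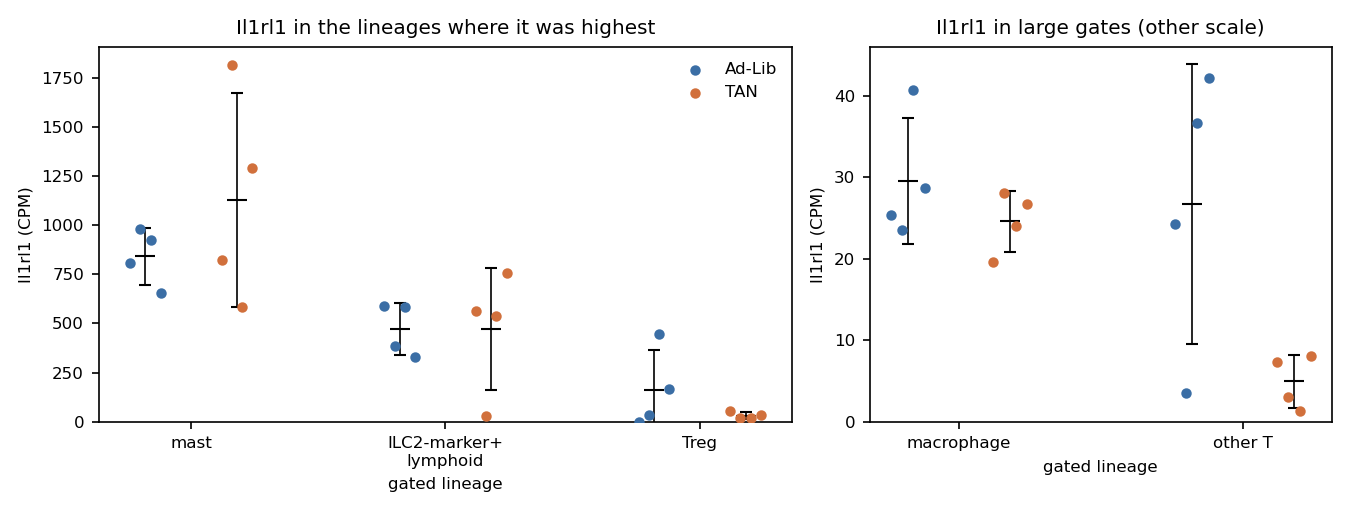
Il1rl1 level in CPM in mast cells, ILC2-marker+ lymphoid cells and Tregs (left) and in macrophages and other T cells (right, on another scale), 1 point a library, with the mean and SD of each group of 4. In mast cells the TAN libraries ran from 583 to 1813 CPM and enclosed the Ad-Lib range of 652 to 980 CPM.

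Areg was called lower under TAN in other T cells and in macrophages, but not in the sum of all cells. Over whole libraries its mean was 8.74 CPM ± 1.81 under Ad-Lib and 9.55 CPM ± 2.18 under TAN feeding (SD over 4 libraries each), and its change of 0.16 (SE 0.21) was not called (edgeR adjusted p = 0.622). Unassigned cells, which held 10.6% of Areg UMIs, had 7.29 ± 2.55 and 9.42 ± 4.77 CPM, with overlap. Tregs, which held 16.4% of Areg UMIs, were at 0, 222, 569 and 41.9 CPM in Ad-Lib 1, 3, 5 and 7 and 674, 192, 182 and 231 CPM in TAN 2, 4, 6 and 8. The groups overlapped there, with means of 208 ± 259 and 320 ± 237 CPM that were not tested. In other T cells it was at 222, 48.8, 117 and 60.4 CPM in Ad-Lib 1, 3, 5 and 7 and at 20.6, 17.8, 12.1 and 39.3 CPM in TAN 2, 4, 6 and 8, and the groups did not overlap. The log2 change was -2.22 (SE 0.44, edgeR adjusted p = 0.0264), 1 of 5 members called in a fit where 280 of 8771 genes (3.19%) were called. The 742 Areg UMIs of this gate came from 113 of 3803 cells, with up to 68 in 1 cell. The call held without Ad-Lib 3, TAN 2 or TAN 8 and was lost without Ad-Lib 1 (-1.65, adjusted p = 0.0909), Ad-Lib 5 (0.0643), Ad-Lib 7 (0.0598), TAN 4 (0.0854) or TAN 6 (0.0958).

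The make-up of this gate moved with it. Of other T cells, 13.6, 58.6, 27.1 and 24.7% had a Ccr7 or Lef1 UMI in Ad-Lib 1, 3, 5 and 7, and 62.0, 73.8, 76.4 and 69.3% in TAN 2, 4, 6 and 8, without overlap. These genes mark naive and recirculating T cells. Among cells without them, a set chosen after the data were seen, Areg was at 250.01, 100.1, 116 and 79.7 CPM in Ad-Lib and 9.09, 73.5, 35.4 and 105 CPM in TAN libraries. There the groups overlapped, and the change was -1.26 (SE 0.43, edgeR adjusted p = 0.270). In this fit 7 of 5909 genes were called, against 280 of 8771 in all other T cells. It rested on fewer cells, 67 to 184 an Ad-Lib library and 93 to 356 a TAN library. All other T cells numbered 89 to 444 and 245 to 1510. The parts of cell number and of make-up were not tested. Gata3, at -0.59 (SE 0.29, adjusted p = 0.261) in all other T cells, was called in 1 of 8 fits that left out a library, without Ad-Lib 3 (-0.88, adjusted p = 0.0231), against -0.33 without Ad-Lib 5 (adjusted p = 0.637). Its change was -0.14 (SE 0.21, adjusted p = 0.893) among the cells without Ccr7 or Lef1. Il7r in other T cells changed by 0.02 (SE 0.13, adjusted p = 0.969). Over 6 other settings with all libraries its change ran from -0.084 to 0.34, with 0 calls. Among cells without Ccr7 or Lef1, Il7r was at 317, 436, 366 and 438 CPM in Ad-Lib libraries. In TAN libraries it was at 242, 494, 454 and 699 CPM there, with overlap.

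In macrophages Areg was at 9.39, 11.6, 11.7 and 15.2 CPM in Ad-Lib 1, 3, 5 and 7 and at 6.75, 5.44, 1.23 and 1.53 CPM in TAN 2, 4, 6 and 8, again without overlap. The log2 change was -1.52 (SE 0.34, edgeR adjusted p = 0.0438), 1 of 3 members called where 0.503% of 9946 genes were called. Its 235 UMIs came from 53 of 4254 cells. Thinned to 2000 UMIs, 1.59% ± 0.918 of macrophages with a Ccr2 UMI and 0.0655% ± 0.107 of those without one had an Areg UMI (SD, n = 8; higher with Ccr2 in 7 of 8 libraries, exact sign-flip p = 0.0156). The call was kept in 1 of 8 fits that left out a library (without TAN 2), and the adjusted p lay between 0.0284 and 0.107 over these fits, with changes of -2.05 to -1.20. Without macrophages that had any UMI of the 15 lymphoid markers, a setting added after the data were seen, the change was -1.59 (SE 0.66) and was not called (adjusted p = 0.286). The summed lymphoid markers in macrophages were at 9.83 to 25.2 CPM in Ad-Lib and 18.2 to 69.4 CPM in TAN libraries.

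**Figure D5:**
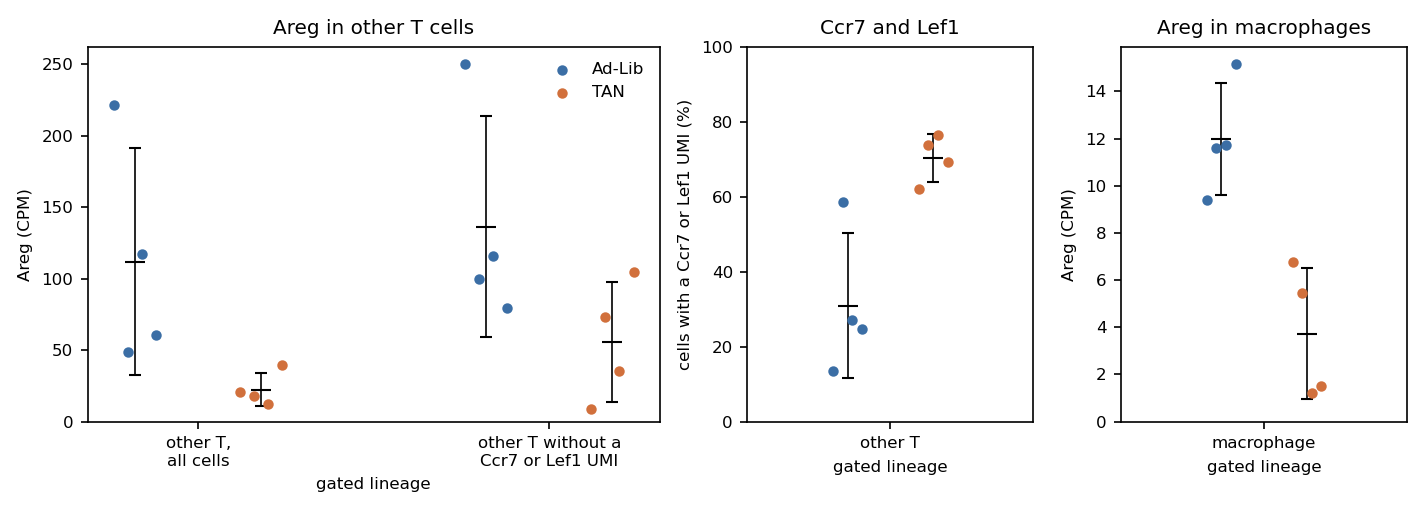
Areg level in CPM in other T cells, in all of them and in those without a Ccr7 or Lef1 UMI (left), share of other T cells with a UMI of these genes (middle), and Areg level in macrophages (right), 1 point a library, with the mean and SD of each group of 4. The groups did not overlap in all other T cells or in macrophages, and overlapped among T cells without Ccr7 or Lef1, at 79.7 to 250.01 CPM in Ad-Lib and 9.09 to 105 CPM in TAN libraries.

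In Cd3-negative lymphoid cells, which pooled 283 NK-marker+, ILC2-marker+ and other cells, edgeR called 0 of 2145 genes (0%), with 135 at an unadjusted p under 0.05 and 0 by DESeq2. Il7r was at 204, 313, 166 and 236 CPM in Ad-Lib and 431, 425, 345 and 375 CPM in TAN libraries, without overlap, and its change of 0.80 (SE 0.21) was not called (adjusted p = 0.243). Gata3 changed by 0.41 (SE 0.25, adjusted p = 0.820) and Areg by 0.93 (SE 0.58, adjusted p = 0.820). Without TAN 8 these changes were 0.17 and 0.49, and without Ad-Lib 5 that of Areg was 0.52. In TAN 8, 40 Areg UMIs came from 1 cell that was neither NK-marker+ nor ILC2-marker+. With no filter on low counts Areg was called (adjusted p = 0.0120). The pool held 48, 48, 32 and 27 cells in Ad-Lib and 20, 30, 53 and 25 cells in TAN libraries, of which NK-marker+ cells were 21 to 37 in Ad-Lib and 13 to 19 in TAN libraries. In dendritic cells only Il7r was tested (change 1.06, SE 0.87, adjusted p = 0.905), and edgeR called 0 of 4599 genes (0%), with 213 at an unadjusted p under 0.05 and 0 by DESeq2.

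Next, 8 shares of all kept cells were compared, of cells that carried Il1rl1 and of the lymphoid gates around them. Not all of these gates were rich in Il1rl1, since none of its UMIs was detected in the 189 NK-marker+ cells and 54 of 3803 other T cells held one. Such counts limit cells with a detected UMI, not cells that express the gene. ILC2-marker+ cells made up 0.156, 0.143, 0.105 and 0.135% of cells in Ad-Lib 1, 3, 5 and 7 and 0.116, 0.183, 0.0531 and 0.179% in TAN 2, 4, 6 and 8 (exact permutation p = 0.943, adjusted p = 0.943). The means, 0.135% ± 0.0213 and 0.133% ± 0.0612 (SD, n = 4 each), rest on 48 cells. Of leukocyte-gated cells they were 0.542% ± 0.146 and 0.3996% ± 0.200 (exact permutation p = 0.286), and without TAN 4 the mean share of kept cells under TAN was 0.116%. Cd3-negative lymphoid cells with both an Il1rl1 and a Gata3 UMI, defined without the ILC2 markers, made up 0.124% ± 0.0253 and 0.0895% ± 0.0890 (exact permutation p = 0.429, adjusted p = 0.490, n = 4 each). Of these 37 cells, TAN 8 held 8, and TAN 4 and TAN 6 held 1 each. Without TAN 8 their mean share under TAN was 0.0513% (exact permutation p = 0.114). Mast cells made up 0.306% ± 0.0624 and 0.159% ± 0.101 (exact permutation p = 0.0857, adjusted p = 0.137). NK-marker+ cells made up 0.689% ± 0.0833 and 0.359% ± 0.0562, without overlap (exact permutation p = 0.0286, adjusted p = 0.114). All Cd3-negative lymphoid cells made up 0.871% ± 0.112 and 0.662% ± 0.199 (exact permutation p = 0.143, adjusted p = 0.190). Their share depended on the denominator, with 3.47% ± 0.633 and 1.84% ± 0.310 of leukocyte-gated cells (exact permutation p = 0.0286) and 0.974% ± 0.227 and 0.947% ± 0.445 of cells other than B and Cd3-positive cells (exact permutation p = 0.914). Tregs made up 0.252% ± 0.195 and 0.847% ± 0.515 (exact permutation p = 0.0857, adjusted p = 0.137), and other T cells 4.35% ± 3.19 and 14.9% ± 9.42 (exact permutation p = 0.0571, adjusted p = 0.137).

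Cells of any lineage with an Il1rl1 UMI made up 3.52, 2.68, 4.66 and 3.20% of cells in Ad-Lib 1, 3, 5 and 7 and 1.78, 1.71, 1.01 and 2.42% in TAN 2, 4, 6 and 8. Every TAN library lay below every Ad-Lib library (exact permutation p = 0.0286, adjusted p = 0.114). The share was not thinned, and TAN cells had fewer UMIs. Of the 921 cells, 545 were macrophages. The macrophage gate itself held 914, 558, 568 and 590 of 5144, 4892, 3798 and 3717 kept cells in Ad-Lib 1, 3, 5 and 7. In TAN 2, 4, 6 and 8 it held 437, 395, 344 and 448 of 4318, 4926, 5654 and 3921. The part of this in the share was not tested. Shares of kept cells are also bound to each other, and without B and Cd3-positive cells in the denominator the means were 3.58% ± 0.631 and 2.01% ± 0.667 (exact permutation p = 0.0286). Of leukocyte-gated cells, those with an Il1rl1 UMI made up 13.2, 5.31, 17.2 and 12.5% in Ad-Lib and 7.25, 3.48, 1.58 and 5.40% in TAN libraries. There Ad-Lib 3 lay below TAN 2 and TAN 8, and the means were 12.1% ± 4.96 and 4.43% ± 2.45 (exact permutation p = 0.0857, adjusted p = 0.152).

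Other genes of the pathway were taken from 4 lists, of type 2 ligands, type 2 receptors, IL-33 signalling, and type 2 identity and responders. They passed the filter in 304 combinations of gene and fit, and 7 were called, 1 higher and 6 lower under TAN, beside 1.02% of all gene tests in the same fits, which also held more lower than higher calls. In other T cells alone, 62 genes were called higher and 218 lower. Nothing particular to these lists is read from the counts. Of the ligands, the chemokines for eosinophils Ccl11 and Ccl24 were the most abundant in their leading lineage, Ccl11 in Icam1+ progenitors (921 CPM pooled) and Ccl24 in macrophages (497 CPM pooled). Ccl24 fell in macrophages, from 568 ± 76.8 to 376 ± 44.1 CPM (SD, n = 4 each; log2 change -0.59, SE 0.10, edgeR adjusted p = 0.0116), without overlap between the groups. That change lies at the 1.5-fold limit and slipped below it in the stricter gates (-0.58) and without Ad-Lib 1 (-0.55) or Ad-Lib 7 (-0.55). Without TAN 2 it was -0.54, with an adjusted p of 0.0553. Ccl11 rose in mural cells, from 89.7 ± 37.8 to 429 ± 157 CPM (log2 change 2.13, SE 0.24, edgeR adjusted p = 3.67e-06, n = 4 each), in a fit where 104 of 5138 genes (2.02%) were called. With a stricter mural gate, where edgeR called 0 of 2745 genes and 221 were at an unadjusted p under 0.05, it was 1.34 (SE 0.41, adjusted p = 0.246). In Icam1+ progenitors Ccl11 changed by 0.07 (SE 0.09, adjusted p = 0.765), and the summed progenitor markers in mural cells were at 1219 to 1585 CPM in Ad-Lib and 1039 to 1535 CPM in TAN libraries.

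Of the receptors, Ramp1, which pairs with Calcrl to form the CGRP receptor, fell in Icam1+ progenitors. It was at 14.2, 17.0, 18.1 and 18.4 CPM in Ad-Lib 1, 3, 5 and 7 and at 3.77, 7.49, 10.4 and 4.99 CPM in TAN 2, 4, 6 and 8, and the groups did not overlap. The log2 change was -1.48 (SE 0.20, edgeR adjusted p = 0.00138), and it was called in all 5 other settings and all 8 fits that left out a library. In Dpp4+ progenitors the change was -0.48 (SE 0.13, adjusted p = 0.146) and in F3+ progenitors -0.60 (SE 0.18, adjusted p = 0.210); whether the subsets differed was not tested. The leading lineages of Ramp1 were mast cells (360 CPM pooled) and ILC2-marker+ cells (305 CPM). Egfr, the receptor of amphiregulin, was highest in Icam1+ (534 CPM pooled) and F3+ progenitors (521 CPM), and its change in Icam1+ progenitors was -0.48 (SE 0.15, adjusted p = 0.106).

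None of the 12 genes of the IL-33 signalling list was called in any fit, with 102 combinations tested. At a background of 1.02% this count is no sign that the list differed from other genes. Of the list of identity and responder genes, 4 combinations were called, all lower under TAN. Klrg1 (log2 change -2.92, SE 0.64, edgeR adjusted p = 0.0317) and Rora (-1.33, SE 0.31, adjusted p = 0.0362) fell in other T cells, and neither was called among cells without Ccr7 or Lef1 (-1.98, adjusted p = 0.0630, and -0.34, adjusted p = 0.475). For both genes the groups overlapped. Without 1 library the Klrg1 call was kept in 2 of 8 fits (without Ad-Lib 3 or TAN 2, with an adjusted p of up to 0.122 in the others) and the Rora call in 3 of 8 (without Ad-Lib 3, TAN 2 or TAN 8, up to 0.119 in the others). Id2 fell in mural cells (-1.14, SE 0.27, adjusted p = 0.0200) and was not called by DESeq2 (adjusted p = 0.0909) or without Ad-Lib 7 (0.130), TAN 2 (0.0693) or TAN 4 (0.0946). Retnla, a macrophage gene whose highest level was in macrophages (8956 CPM pooled), fell in the blood endothelial gate (-1.44, SE 0.38, adjusted p = 0.0458), where 2.23% of 10905 genes and neither of the 2 members tested were called. It was not called by DESeq2 (adjusted p = 0.132), at a mitochondrial limit of 20% (0.0565), or in 6 of 8 fits that left out a library. In macrophages themselves it changed by -0.21 (SE 0.09, adjusted p = 0.305).

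The genes whose pooled levels over 18 lineages followed those of Il33 most closely, among 12966 genes, were Sct, Clip4, Sntg1, Snhg11 and Myoc, with Pearson's r of 0.96 to 0.97 on log2(CPM + 1). All of these led in Dpp4+ progenitors. For Il1rl1 they were Espn, Depdc1b, Cd200r1, Tnf and Chaf1b, with r of 0.85 to 0.88 and mast cells as the leading lineage of each. These values describe pooled cells of the same 8 libraries, in which small lineages were sampled thinly.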

How the data were processed

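Single-cell RNA-seq of the SVF of inguinal fat was analysed from 8 libraries. The authors deposited raw counts (UMIs per gene and barcode), made with Cell Ranger on mm10 (GRCm38); the study's methods and the submitters' processing notes name version 3.0.2 and the file headers 6.0.1. Groups came from the labels. Cells with 700 to 30000 UMIs, 200 to 8000 genes and at most 10% mitochondrial UMIs were kept. A cell joined the lineage with the largest share of its marker list detected (at least 3 markers, the next lineage at no more than 0.6 of that share), and progenitors and lymphoid cells were divided by further markers. Names rebuilt in this way differ from the study's clusters. Doublets were not removed beyond that gap. The members and lists were chosen with earlier results of these data known.

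Counts were summed per library and lineage and tested with edgeR 4.0.16 (TMM, its filter on low counts, quasi-likelihood test), for libraries with at least 10 cells and at least 3 libraries a group. The scripts were tested on simulated data. Single values were compared by exact permutation over 70 assignments of the 8 libraries, and lineages by exact sign flips over libraries. Alternatives were DESeq2 1.42.0, RLE size factors, no low-count filter, stricter gates (4 markers, ratio 0.4), a mitochondrial limit of 20%, thinning to 1000 UMIs or none, a pseudocount of 10 in place of 1, other denominators, mean UMIs per cell, and leaving out each library. Named genes were all members, the pathway genes called, the 2 leading ligands and receptors, and the 5 genes most like Il33 and Il1rl1. Binomial and Poisson intervals (95%) cover counting error only. Sequences came from RefSeq and coordinates from GENCODE M21.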

Additional observations from a re-analysis of the deposited data

Results flagged for a closer look

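Of 84 groups of 4 libraries examined, 9 held 1 library far from the other 3. Chance alone marks about 1 in 20 groups. Ad-Lib 3 was high for Il33 in F3+ progenitors, at 63.3 CPM and with 7.74% of thinned cells showing an Il33 UMI, and its share of other T cells was 9.08%. Ad-Lib 5 was low for Areg in ILC2-marker+ cells (27.7 CPM, 4 cells), and Ad-Lib 7 had a low share of NK-marker+ cells (0.565%). TAN 2 was high for Areg in Tregs (674 CPM, 7 cells) and for Klrg1 in other T cells (9.97 CPM), and low for Ccl24 in macrophages (310.3 CPM). TAN 4 was high for Il13 in ILC2-marker+ cells (467 CPM, 9 cells). The causes were not tested.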

How the results depend on the processing

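No paired analysis was possible because the 2 groups share no replicate number. Of 793 values under alternatives, 639 kept their direction and side of the threshold (counts within 1.5 times), 50 lost a call, 14 gained one, 31 reversed and 59 moved. Without the low-count filter the genes called were 138 in Dpp4+ (46 with it), 182 in F3+ (14), 349 in Icam1+ (181) and 148 in all progenitors (71), 367 in blood endothelial (243) and 162 in mural cells (104), 211 in macrophages (50), 3 in dendritic cells (0), 831 in other T cells (280) and 38 in Cd3-negative lymphoid cells (0). DESeq2 called 27 in F3+ and 141 in all progenitors, 50 in mural cells, 438 in other T cells and 776 against 4 in whole libraries. Stricter gates gave 0 in mural, 179 in other T and 1 in Cd3-negative lymphoid cells. Other T cells without Ccr7 or Lef1, a smaller set of cells, gave 7 of 5909 genes tested. The stricter mural gate had 221 genes at an unadjusted p under 0.05, and a mural gate with at most 1 progenitor marker, added after the data were seen, could not be fitted because 2 TAN libraries had too few cells.

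Leaving out 1 library gave 6 to 95 genes in Dpp4+, 3 to 20 in F3+, 108 to 204 in Icam1+ and 22 to 130 in all progenitors, 139 to 255 in blood endothelial, 29 to 139 in mural, 18 to 68 in macrophage, 0 to 0 in dendritic, 1 (without TAN 6) to 1146 (without Ad-Lib 3) in other T, 0 to 3 in Cd3-negative lymphoid cells and 0 to 296 in whole libraries. The cause was not tested. The log2 change of Il7r in other T cells turned to -0.084 with stricter gates and ran from -0.051 to 0.10 without 1 library. That of Il33 in Icam1+ progenitors ran from -0.27 to 0.00085, that of Il1rl1 in Cd3-negative lymphoid cells from -0.22 to 0.92, and in whole libraries that of Il33 from -0.24 to 0.19, of Calca from -0.33 to 0.15 and of Areg from 0.061 to 0.34. Without 1 library the Il33 difference between subsets ran from 0.37 to 0.81 (Dpp4+ against Icam1+) and from -0.67 to -0.083 (against F3+), and the Il1rl1 difference in ILC2-marker+ cells from -94.4 to 148 CPM. The TAN minus Ad-Lib difference in cells with Il33 was -2.39 points in progenitors of no subset without thinning, and without 1 library it ran from -0.894 to 1.16 there and from -0.172 to 0.0544 in Icam1+ progenitors. That of ILC2-marker+ cells was 0.0286 points without B and Cd3-positive cells in the denominator and 0.0149 with stricter gates, and ran from -0.0188 to 0.0244 without 1 library. Il1rap in Schwann against F3+ progenitors (45.8 CPM) passed when libraries of 3 cells were admitted to the same 30 pairs (adjusted p = 0.0335), but is no pair of neighbours in the new order of 33 pairs, where no adjusted p was below 0.0645, and Dpp4+ against Icam1+ progenitors reversed as mean UMIs per cell (-0.00907).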
